A study of Mus musculus with 30 samples.

Results

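Proliferins are secreted hormones of the prolactin family, encoded in the mouse by the Prl2c genes. The genes described here are Prl2c2, Prl2c3 and Prl2c4, and they were chosen because their signal is so much higher after fibroblasts are transformed. All probes of an Illumina mouse bead array whose name in the deposited probe table is one of these 3 symbols were taken. There are 4 such probes of 45281 on the array: ILMN_1259967 and ILMN_2617996, both named PRL2C2, ILMN_2875585, named PRL2C3, and ILMN_2996648, named PRL2C4. The current gene table gives Prl2c4 as an older symbol of Prl2c3, so the last probe may report the same gene as the third. Since the genes were chosen on the difference between primary and transformed cells, that difference is described below without a test.

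In the mouse placenta, proliferin is made by trophoblast giant cells and is known to promote the growth of blood vessels. It binds the cation-independent mannose 6-phosphate receptor, Igf2r, rather than being known as a ligand of the prolactin receptor. The family took its name from cultured mouse fibroblasts, in which proliferin mRNA appears when quiescent cells are stimulated to divide. The proliferin promoter is also a classic target of AP-1, the dimer of Fos and Jun proteins, and of the glucocorticoid receptor.

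The study profiled primary mouse embryonic fibroblasts (MEFs), transformed MEFs, and tumours grown from the latter in nude mice, each Smchd1 wildtype or Smchd1 null, on 30 arrays. Smchd1 encodes an SMC-like protein that takes part in silencing the inactive X chromosome and some autosomal gene clusters. All cells were of the FVB/N strain, and the null cells carry the MommeD1 point mutation. The primary MEFs were grown for 2 to 3 passages with neither oncogenic agent. The transformed MEFs of both genotypes carried a knockdown of p53 and overexpressed HRasV12, and were collected 2 weeks after transformation. Tumours of both genotypes arose from such cells, so they share the knockdown and HRasV12, and they also hold cells of the recipient mouse. The age and Smchd1 genotype of the recipients are not given in the labels. Each culture group had 3 arrays. Each tumour group had 3 recipient mice with 3 arrays apiece, and the replicate is the recipient (the mean of its 3 arrays), so n = 3 in all 6 groups. Whether the culture replicates are separate cultures or embryos is not stated, so the p-values cover just the spread between these samples, and that may be technical.

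The promoters of 2 proliferin genes are shown to set these closely related genes side by side. Likeness of promoters does not show how well a probe separates their transcripts, which were not compared. Prl2c2, Prl2c3 and Prl2c5, a further proliferin gene that is not among the members, all lie on chromosome 13. The RefSeq promoter table (GRCm38.p6) holds entries for Prl2c3 (chr13:12800080-12800329, minus strand) and Prl2c5 (chr13:13182466-13182715, plus strand), and the 250 bases before the start it uses read, 5′ to 3′, with matches to TGANTCA and TATATAA in capitals:
Prl2c3: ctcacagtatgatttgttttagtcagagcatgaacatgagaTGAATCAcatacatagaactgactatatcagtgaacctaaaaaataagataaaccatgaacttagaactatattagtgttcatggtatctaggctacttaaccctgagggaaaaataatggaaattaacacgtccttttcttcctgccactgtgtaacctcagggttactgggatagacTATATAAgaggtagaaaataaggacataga
Prl2c5: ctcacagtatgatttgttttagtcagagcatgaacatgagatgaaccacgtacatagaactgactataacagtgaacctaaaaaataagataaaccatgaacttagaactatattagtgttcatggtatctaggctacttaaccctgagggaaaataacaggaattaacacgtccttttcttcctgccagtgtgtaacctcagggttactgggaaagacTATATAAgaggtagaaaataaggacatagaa

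These windows had identical bases in 241 of 251 aligned columns (96.0%), with 8 substitutions and 2 gap columns. The AP-1 motif TGANTCA, searched on both strands, was found once in the Prl2c3 window, starting at position -209 from the start. It was not found in the Prl2c5 window, where the substitution T46C falls within it (the Prl2c3 base first, positions counted from 1 at the 5′ end of the Prl2c3 window). Of 32851 promoter windows of the same length, 6.75% held this motif. The TATA box motif TATATAA was found at -30 in Prl2c3 and at -31 in Prl2c5, against 3.04% of all windows. The GATA motif AGATAA was found at -163 in both, against 9.99% of windows. Neither window held TGTTCT, a glucocorticoid receptor half-site found in 16.1% of windows, or TGACGTCA, found in 1.55%. These are matches of letters and not measured binding sites. The probes' own sequences were not used here, so cross-hybridization between proliferin genes could not be examined, and each value below belongs to a probe rather than with certainty to 1 gene.

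Values are log2 intensities after quantile normalization of all arrays together. The background of a group, the level under which a probe is not distinguished from unexpressed ones, was taken from the 22865 probes that no array detected, as their 95th percentile, and lay between 6.24 and 6.33. Levels of Smchd1 in all groups and of Trp53 in wildtype cultures are given as a check of the labels. Smchd1 (ILMN_1242619) was at 9.58 ± 0.03 (SD, n = 3) in wildtype and 7.26 ± 0.09 in null primary MEFs, at 9.43 ± 0.15 and 7.29 ± 0.05 in transformed MEFs, and at 9.32 ± 0.15 and 8.13 ± 0.12 in tumours. This probe still gave signal above background in null samples, and a point mutation need not remove the mRNA. Trp53, which encodes p53, was at 10.97 ± 0.11 in wildtype primary MEFs and 7.58 ± 0.07 in wildtype transformed MEFs. All 9 fibroblast markers were above background in every replicate. On every primary array, all 5 keratinocyte, all 5 skeletal muscle and 10 of 11 macrophage genes were above background too. The 3 stages were run on different chips (primary MEFs on 1, transformed MEFs on 1, tumours on 3), so stage and chip cannot be told apart.

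Proliferin signal was not above background in wildtype primary MEFs and was high on every array after transformation. The first PRL2C2 probe, ILMN_1259967, read 6.00, 5.96 and 6.17 on the wildtype primary arrays and 12.24, 12.08 and 12.09 on the wildtype transformed arrays. The second PRL2C2 probe, ILMN_2617996, read 5.97, 6.13 and 6.00 in the former and 13.82, 13.55 and 13.50 in the latter. No wildtype primary array was above its background for either PRL2C2 probe, and every transformed array was. The PRL2C3 probe, ILMN_2875585, read 5.99, 5.95 and 5.97 in wildtype primary MEFs and 13.90, 13.71 and 13.62 in wildtype transformed MEFs. The PRL2C4 probe, ILMN_2996648, read 6.00, 6.02 and 5.99 and then 13.69, 13.25 and 13.14. Because wildtype primary MEFs gave no signal above background, the fold is a lower bound, taken against the background level. Wildtype transformed MEFs were at least 58.7-fold higher for ILMN_1259967, at least 165-fold for ILMN_2617996, at least 179-fold for ILMN_2875585 and at least 137-fold for ILMN_2996648.

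**Figure D1:**
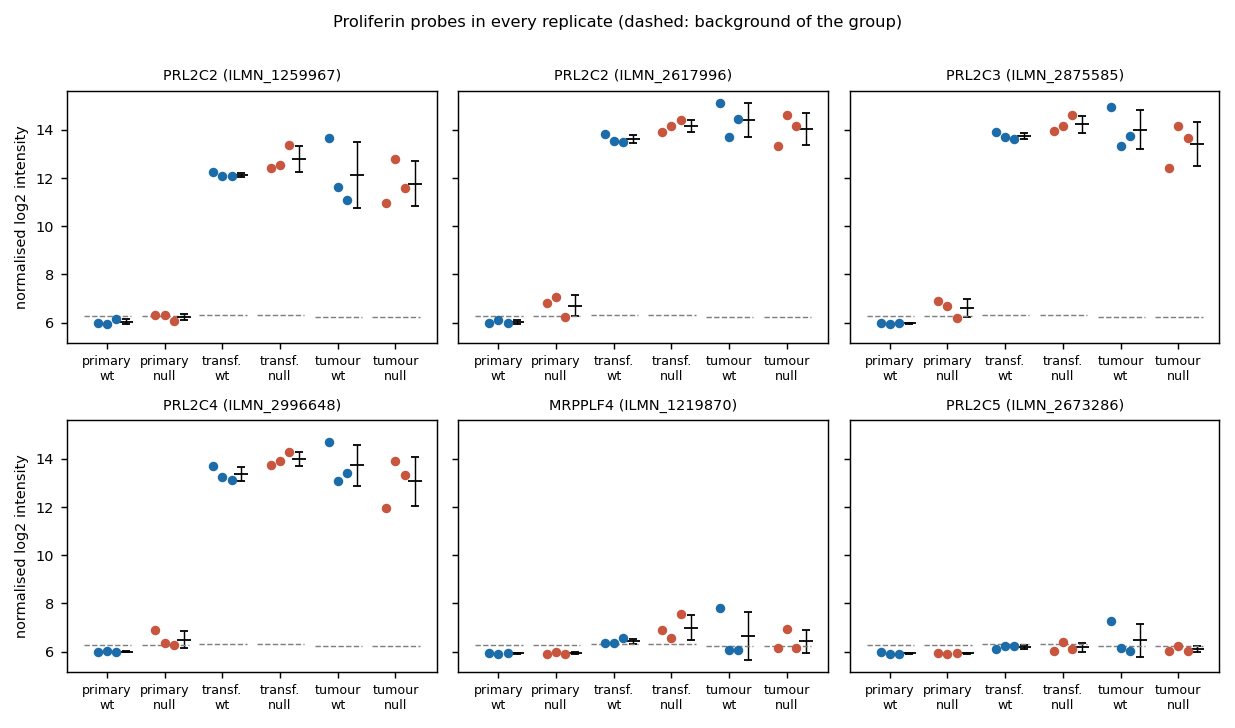
Normalised log2 intensity (y axis) of the 4 proliferin probes and of the 2 Prl2c5 probes in the 6 groups (x axis). Points are replicates (arrays in cultures, recipient means in tumours), blue for wildtype and red for null, black marks are the mean ± SD (n = 3) and the dashed line is the background of the group. The 4 member probes lie near or below background in primary MEFs and between 10.97 and 15.12 in transformed MEFs and tumours, while the Prl2c5 probes stay below 8.

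The same step was seen in Smchd1 null cells. ILMN_1259967 read 6.31, 6.33 and 6.09 on the null primary arrays and 12.43, 12.54 and 13.39 on the null transformed arrays. ILMN_2617996 read 6.81, 7.08 and 6.23 and then 13.92, 14.14 and 14.42. ILMN_2875585 read 6.90, 6.71 and 6.19 and then 13.94, 14.15 and 14.63. For all 3 of these probes, null primary replicates 1 and 2 were above the background of their arrays and replicate 3 was not. For ILMN_1259967 the margin was slight, with 6.31 against 6.31 and 6.33 against 6.28. ILMN_2996648 followed the same division, with 6.89, 6.36 and 6.26 in null primary MEFs, and read 13.74, 13.92 and 14.30 in null transformed MEFs. At a detection p under 0.01, ILMN_1259967 was detected on 24 of 30 arrays, ILMN_2996648 on 25, and ILMN_2617996 and ILMN_2875585 on 26. For ILMN_1259967 and ILMN_2996648 these are fewer arrays than were above background. Which arrays detected a probe is not known, as the detection values match no sample label. The group mean of ILMN_1259967 in null primary MEFs did not pass background, and the null transformed MEFs were at least 92.3-fold higher. The folds between the group means were 175 for ILMN_2617996, 199 for ILMN_2875585 and 179 for ILMN_2996648.

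Among the 20254 probes detected (p under 0.01) on at least 3 arrays, the transformed minus primary difference of the members ranked 5th to 15th in wildtype cells and 5th to 12th in null cells. The median difference of all these probes was 0.05 on the log2 scale in wildtype and 0.07 in null cells, and the 99th percentile was 2.04 and 1.97. This rank is what the genes were chosen for and is given only as a description. The member probes also lay close to the top of the scale. The highest value that any probe took on an array was 15.35 and the highest member value was 15.27, and whether signals near this ceiling were compressed was not tested.

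The study's own question was what loss of Smchd1 changes, and for proliferin it was asked in each stage separately. In primary MEFs the 3 null arrays lay above the 3 wildtype arrays for ILMN_2617996, ILMN_2875585 and ILMN_2996648, and overlapped them for ILMN_1259967. Groups did not overlap for 10.2% of all tested probes, and all null arrays were higher for 4.29%. The null minus wildtype difference was 0.67 ± 0.20 (log2, SE, n = 3 per group; 95% confidence interval 0.22 to 1.12) for ILMN_2617996, with an adjusted p of 0.754 by limma with Benjamini-Hochberg adjustment over 20254 probes. It was 0.63 ± 0.17 for ILMN_2875585 (limma, adjusted p = 0.70), 0.50 ± 0.16 for ILMN_2996648 (limma, adjusted p = 0.824) and 0.20 ± 0.11 for ILMN_1259967 (limma, adjusted p = 0.871). None of the 4 probes was called at an adjusted p under 0.05, a threshold that 0.0296% of all probes passed. Their unadjusted p-values in the limma fit were 0.00844, 0.00559, 0.0134 and 0.0988, in that order, and 5.61% of all probes were under 0.05. As the wildtype arrays gave only background, the measured sizes are bounds: null primary means were at least 1.36-fold higher for ILMN_2617996, 1.26-fold for ILMN_2875585 and 1.18-fold for ILMN_2996648. Without null replicate 1 the log2 difference of ILMN_2996648 was 0.31. Null replicate 3, the array at background, also had the highest mean level of keratinocyte markers among null primary arrays, 10.49 against 9.74 and 9.41 (mean log2 level over 5 genes), and the wildtype arrays were at 8.62, 9.74 and 8.96. The mean level of 3 erythroid genes was 9.87, 9.75 and 9.12 on null and 9.59, 8.87 and 9.31 on wildtype primary arrays, so replicate 3 was the lowest null array here. The 12 erythroid probes, which belong to 3 genes, all had a higher mean in null than in wildtype primary MEFs. Their median difference was 0.57 and none was called. All 5 keratinocyte probes were higher in null too, with a median of 0.76. In other lists, 0 of 7 skeletal muscle, 3 of 15 macrophage and 4 of 12 endothelial probes were higher in null. So were 3 of 16 fibroblast and 5 of 7 trophoblast probes. The part of other cell types in the proliferin values was not tested.

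In transformed MEFs all 4 probes were higher in every null array than in every wildtype array, which held in this direction for 14.4% of all probes, and in either direction for 27.5%. The difference was 0.65 ± 0.23 for ILMN_1259967 (95% interval 0.12 to 1.18; limma, adjusted p = 0.146) and 0.53 ± 0.15 for ILMN_2617996 (0.20 to 0.87; limma, adjusted p = 0.0757). For ILMN_2875585 it was 0.49 ± 0.17 (0.10 to 0.89; limma, adjusted p = 0.141) and for ILMN_2996648 it was 0.63 ± 0.18 (0.21 to 1.05; limma, adjusted p = 0.0897). As folds these were 1.41 to 1.57. None of the 4 was called, against 5.86% of all probes (1186 probes, and 291 to 657 with any 1 array left out). Null replicate 3 was the highest array for all 4 probes, and without it the differences were 0.35, 0.40, 0.30 and 0.47, in the same order. Between stages, the genotype difference changed by 0.45 ± 0.27 for ILMN_1259967, -0.14 ± 0.26 for ILMN_2617996, -0.14 ± 0.26 for ILMN_2875585 and 0.13 ± 0.26 for ILMN_2996648, and none of these interaction contrasts was called, against 1.94% of all probes. Without null transformed replicate 3 the change of ILMN_1259967 was 0.15. As the wildtype primary arrays gave only background for all 4 probes, and both primary groups did for ILMN_1259967, these changes are not measured sizes. The primary and transformed values, on which the genes were chosen, also enter these interaction contrasts.

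**Figure D2:**
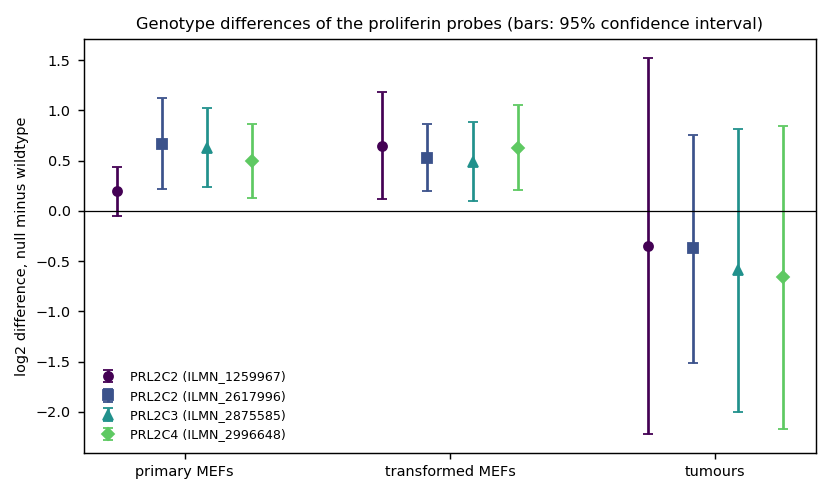
Log2 difference, Smchd1 null minus wildtype (y axis), of the 4 proliferin probes in primary MEFs, transformed MEFs and tumours (x axis). Symbols are limma estimates from the fit of each stage alone (n = 3 per group) and bars are 95% confidence intervals. The estimates lie between 0.20 and 0.67 in the cultures and between -0.66 and -0.35 in tumours, where every interval spans 0.

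Proliferin signal was high in tumours too, with a wider spread than in the transformed cultures. ILMN_1259967 read 13.66, 11.62 and 11.10 in wildtype recipients 1, 2 and 3, and 10.97, 12.78 and 11.57 in null recipients 4, 5 and 6 (means of 3 arrays). ILMN_2617996 read 15.12, 13.70 and 14.44 in the wildtype and 13.33, 14.63 and 14.18 in the null recipients. The wildtype and null recipients overlapped for both probes. ILMN_2875585 read 14.93, 13.35 and 13.75 in the wildtype and 12.40, 14.18 and 13.68 in the null recipients. ILMN_2996648 read 14.68, 13.08 and 13.42, and 11.95, 13.92 and 13.33. For all 4 probes the order began with wildtype recipient 1, then null recipient 5, and ended with null recipient 4. The highest recipient was 3.46-fold (ILMN_2617996) to 6.63-fold (ILMN_2996648) above the lowest. The SD between recipients of a genotype was 0.66 to 1.36 on the log2 scale, against 0.09 to 0.53 between arrays of transformed MEFs. The 3 arrays of 1 recipient also differed, with an SD of 0.77, 0.41, 0.64 and 0.64 for the 4 probes in the order above. These arrays were on 3 different chips, so their spread includes differences between chips, while all transformed arrays shared a chip. The labels do not state whether the arrays of a recipient are of the same RNA. The widest range within a recipient was 4.84-fold, for ILMN_1259967 in recipient 3. Fewer cells that express a gene and less RNA per cell cannot be told apart in such bulk samples.

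**Figure D3:**
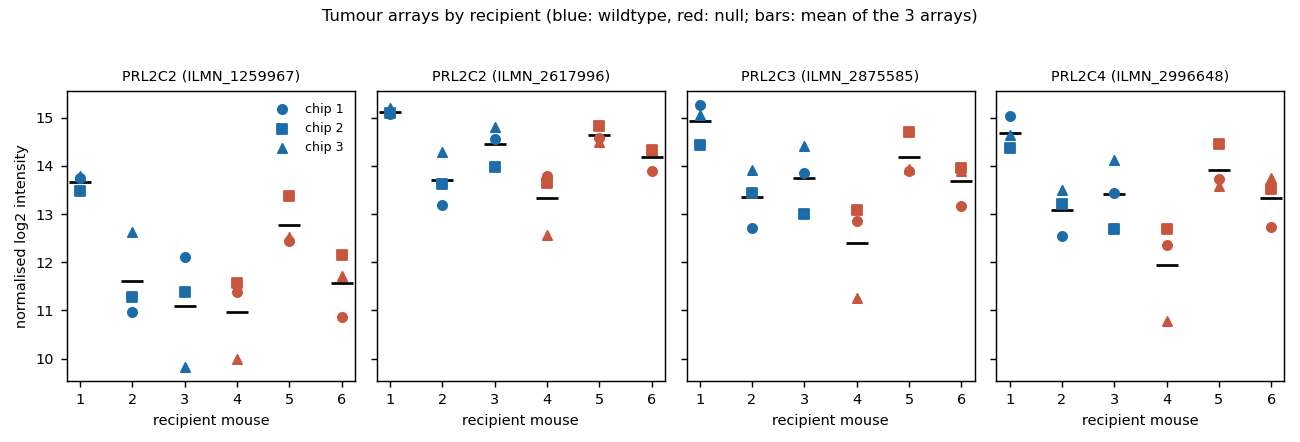
Normalised log2 intensity (y axis) of each tumour array for the 4 proliferin probes, by recipient mouse (x axis), with symbol shapes for the 3 tumour chips, blue for wildtype and red for null tumours, and a black bar for the mean of the 3 arrays. Recipient 1 is highest and recipient 4 lowest in every panel, and for ILMN_1259967 the arrays of recipient 3 spread from 9.82 to 12.10.

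The genotypes overlapped in tumours for all 4 probes. The null minus wildtype difference was -0.35 ± 0.77 for ILMN_1259967, -0.37 ± 0.47 for ILMN_2617996, -0.59 ± 0.58 for ILMN_2875585 and -0.66 ± 0.62 for ILMN_2996648 (limma, adjusted p = 1 for each; unadjusted p 0.662, 0.451, 0.349 and 0.328). No probe of the array was called (0% of 20254, with 2.25% at an unadjusted p under 0.05), and groups did not overlap for 6.66%. The intervals reached from -2.22 to 1.52 for ILMN_1259967 and from -1.51 to 0.76 for ILMN_2617996, so differences of the size seen in culture were not resolvable among 3 recipients. On the second tumour chip alone all 4 differences were above 0, at 0.32, 0.03, 0.30 and 0.13. They were -0.71, -0.18, -0.64 and -0.73 on the first chip alone and -0.67, -0.97, -1.43 and -1.38 on the third. Without wildtype recipient 1 the 4 differences were 0.42, -0.0255, -0.13 and -0.18, and without null recipient 4 they were 0.0472, -0.0163, -0.0814 and -0.10. Against transformed MEFs, the genotype difference in tumours changed by -1.0 ± 0.74, -0.91 ± 0.45, -1.08 ± 0.56 and -1.29 ± 0.59 log2 units (estimate ± SE), in the same order of probes. Without wildtype recipient 1 these changes were -0.24, -0.56, -0.63 and -0.81, and without null recipient 4 they were -0.60, -0.55, -0.57 and -0.73. For ILMN_1259967 the change was -1.52 without wildtype recipient 3 and -1.51 without null recipient 5. None of these interaction contrasts was called by limma (adjusted p 0.881 to 0.982), nor was any other probe (0%, with 5.65% at an unadjusted p under 0.05). The transformed values, for which the genes were chosen, enter these contrasts, so their p-values carry that limit.

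Null tumours and null transformed MEFs are compared as a description, without a test, because the genes were chosen for their high values in transformed cells. The difference of group means was -1.01 for ILMN_1259967, -0.11 for ILMN_2617996, -0.82 for ILMN_2875585 and -0.92 for ILMN_2996648, with 45.8% of all probes called in this contrast. Without null recipient 4 these values were -0.61, 0.24, -0.31 and -0.36. On simulated data 19.8% of the calls of this contrast were false, more than its threshold names. Far fewer probes were changed there than the 45.8% called here, so the share among the calls of other genes below is not known. In wildtype cells, given as a description, tumours minus transformed MEFs was -0.01, 0.79, 0.26 and 0.37 for the 4 probes, with the median of all probes at -0.04. Without wildtype recipient 1 it was -0.78, 0.45, -0.19 and -0.11, so the sign of the difference for ILMN_2875585 and ILMN_2996648 rests on that mouse. The difference of ILMN_1259967 was 0.39 on the values as deposited.

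Markers of host cells varied between recipients as well. The mean log2 level of 10 endothelial genes was 8.87, 8.17 and 9.10 in wildtype recipients 1, 2 and 3 and 8.94, 8.28 and 8.21 in null recipients 4, 5 and 6. That of 11 macrophage genes was 10.87, 11.24 and 10.76, and 10.96, 10.77 and 10.31. That of 3 erythroid genes was 12.85, 13.19 and 11.86, and 12.43, 12.32 and 12.16. Each list was above background in every recipient for most of its genes. The 5 skeletal muscle genes were at 7.06, 6.67 and 6.56, and at 7.76, 6.58 and 8.19, and the 9 fibroblast markers were at 11.74 to 12.28. The part of host cells in the spread of proliferin between recipients was not tested. The levels of these markers also differed between stages. The macrophage genes were at 10.36 to 10.82 in primary MEFs, where 10 of 11 were above background on every array, at 6.31 to 6.41 in transformed MEFs and at 10.31 to 11.24 in tumours. The keratinocyte genes were at 8.62 to 10.49, 6.34 to 6.50 and 6.02 to 6.63 in the 3 stages. Their part in the stage differences of proliferin was not tested.

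The gap between the 2 PRL2C2 probes varied between arrays. The gap itself also depends on how strongly each probe binds and on the ceiling of the scale, so only its variation is described. ILMN_2617996 minus ILMN_1259967 was 1.41 to 1.58 on the wildtype transformed arrays and 1.03 to 1.60 on the null transformed arrays. On the 9 wildtype tumour arrays it ran from 1.32 to 4.98, with a median of 2.22, and on the 9 null tumour arrays from 1.46 to 3.03, with a median of 2.17. The widest gap was on 1 array of recipient 3, where ILMN_1259967 read 9.82 and ILMN_2617996 read 14.80. On that array the PRL2C3 and PRL2C4 probes read 14.42 and 14.13, both above the other 2 arrays of the recipient, so ILMN_1259967 stood apart from the other 3 probes there. A ratio within an array shows unequal change and not which probe reports Prl2c2.

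Prl2c5, the proliferin gene shown above beside Prl2c3, gave little signal. ILMN_1219870, named MRPPLF4 (an older name), was detected on 7 of 30 arrays, and ILMN_2673286, named PRL2C5, on 2 of 30. ILMN_1219870 read 5.93, 5.92 and 5.94 in wildtype and 5.92, 6.00 and 5.90 in null primary MEFs, none above background. In transformed MEFs it read 6.35, 6.38 and 6.56 in wildtype and 6.88, 6.56 and 7.56 in null cells. Null transformed MEFs were at least 1.67-fold above null primary MEFs. In tumours it was highest in recipient 1 (7.81), then in recipient 5 (6.96), the same 2 recipients that led for the members, and lay between 6.07 and 6.17 in the others. ILMN_2673286 was likewise highest in recipient 1 (7.26) and between 6.01 and 6.24 in the rest. No genotype difference of ILMN_1219870 was called by limma in any stage, and ILMN_2673286 was detected on too few arrays to be tested.

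Most probes for other members of the prolactin family were detected on no array. The list fixed for the family held 23 genes, mostly placental hormones, of which 21 had at least 1 probe and 27 probes in all. Of these probes 20 were detected on no array, 2 on 1 array each, and 5 probes of 2 genes passed the detection filter. The genes were Prl3d3, a placental lactogen, with 4 probes, and Prl8a8 with 1. The strongest Prl3d3 probe, ILMN_2899386, read 6.39, 6.15 and 5.99 in wildtype and 6.00, 5.96 and 6.17 in null primary MEFs. It read 11.55, 11.57 and 12.44 in wildtype and 12.01, 12.49 and 13.08 in null transformed MEFs. For this Prl3d3 probe, transformed MEFs exceeded primary MEFs at least 48.2-fold in wildtype cells and 76.9-fold in null cells, without a test, since this list was chosen with these results known. The other Prl3d3 probes had the same order of groups at lower levels, with bounds of 1.70 to 4.21 in wildtype and 2.44 to 6.99 in null cells.

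**Figure D4:**
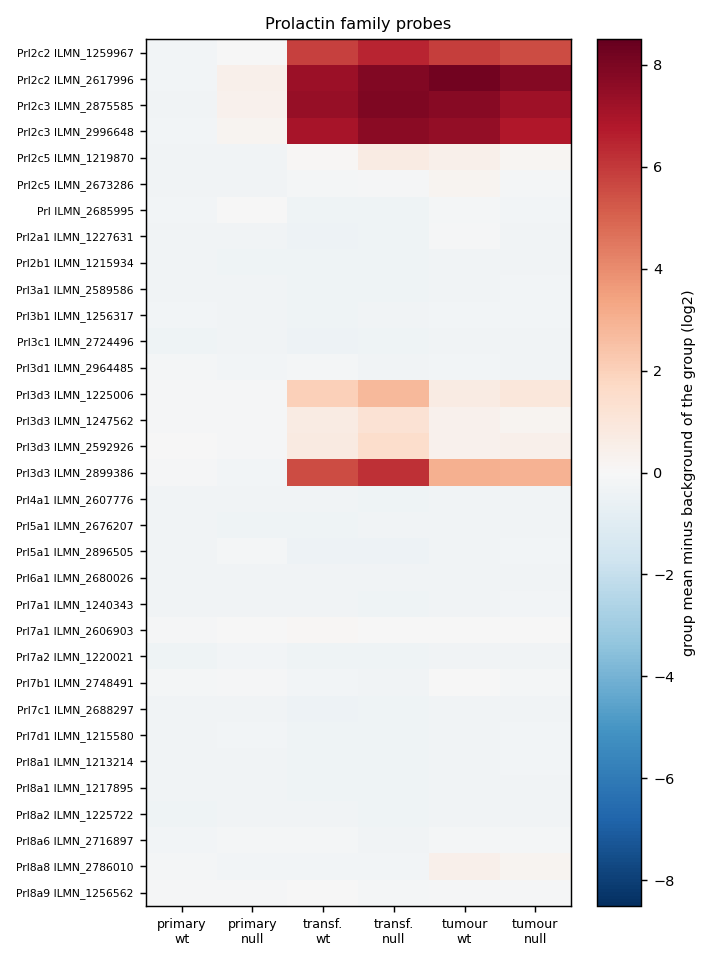
Group mean minus background of the group, in log2 units (colour, white at 0), for the 33 probes of the prolactin family (rows, by current gene symbol) in the 6 groups (columns). The 4 member probes at the top and the Prl3d3 probes are above background after transformation, Prl2c5 and Prl8a8 are slightly above it in some groups, and the rest are near or below it throughout. The probe that the file names PRL2C4 is shown under its current symbol, Prl2c3.

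In tumours the strongest Prl3d3 probe was above background in every recipient. ILMN_2899386 read 9.52, 8.45 and 9.92 in wildtype recipients 1, 2 and 3, and 10.18, 10.19 and 7.27 in null recipients 4, 5 and 6. Given as a description, because these probes were highest in transformed MEFs and passed the detection filter partly for that reason, null tumours minus null transformed MEFs was -3.31 log2 units for ILMN_2899386. The other 3 probes listed under Prl3d3 had differences of -1.06 to -1.83. Whether all of these probes report the same gene could not be examined. Whether Prl3d3 and proliferin changed unequally was not tested. No genotype difference of the 5 probes of Prl3d3 and Prl8a8 was called by limma in any stage. In transformed MEFs the difference of ILMN_2899386 was 0.67 ± 0.31 (limma, adjusted p = 0.251). Genotypes did not overlap there for 1 of the 4 Prl3d3 probes, close to the 27.5% of all probes.

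Receptors were examined because Igf2r binds proliferin, while Prlr and Ghr bind prolactin and growth hormone and M6pr is the smaller mannose 6-phosphate receptor. Of 15 probes for these 4 genes, 9 probes passed the filter. Igf2r was well expressed in all groups. ILMN_2931095 read 11.42, 11.24 and 11.15 in wildtype and 11.07, 10.99 and 11.28 in null primary MEFs, and 11.68, 11.64 and 11.57 in wildtype and 11.21, 11.16 and 11.16 in null transformed MEFs. The null transformed arrays were all lower than the wildtype ones, with a difference of -0.45 ± 0.08 for ILMN_2931095 (limma, adjusted p = 0.0192) and -0.65 ± 0.13 for ILMN_2931096 (limma, adjusted p = 0.0296). Ghr was lower as well in null transformed MEFs by all 3 of its probes, with a difference of -0.89 ± 0.09 for ILMN_1253504 (limma, adjusted p = 0.00318). In all, 5 of the 9 receptor probes were called lower in null transformed MEFs, against 3.18% of all probes. The 9 probes belong to 4 genes, and probes of the same gene are not separate members. As the receptor list was chosen with earlier results of these data known, its counts here and below are descriptions. None was called in primary MEFs or in tumours, where just 0.0296% and 0% of all probes were called. Only the Ghr probe ILMN_1253504 was called in the change of the genotype difference between primary and transformed MEFs (-0.92 ± 0.14; limma, adjusted p = 0.0041).

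The probes of Prlr disagreed between stages. ILMN_2617005 read 9.02, 8.91 and 8.98 in wildtype primary MEFs and 6.39, 6.35 and 6.50 in wildtype transformed MEFs, a 5.89-fold lower level after transformation, given without a test. It was not above background in null transformed MEFs (mean 6.20), at least 6.60-fold below null primary MEFs. In tumours it reached 7.91 in wildtype recipient 3 and 7.83 in null recipient 5 and lay between 6.15 and 6.77 in the other 4. A second Prlr probe, ILMN_1257900, was at 6.83 to 7.15 in the culture groups and showed no such step. Both Igf2r probes were called higher in null tumours than in null transformed MEFs, by 1.13 ± 0.30 and 1.20 ± 0.29 (limma, adjusted p = 0.00788 and 0.00485), among 4 of 9 receptor probes called higher against 21.5% of all probes. Of the calls of this contrast on simulated data, 19.8% were false, more than its threshold names. Far fewer probes were changed there than were called here, so this share need not hold for these calls. In the same contrast the median difference was 3.52 for macrophage, 2.09 for endothelial and 7.32 for erythroid probes. The part of host cells in the Igf2r difference was not tested.

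AP-1 genes are named because AP-1 binds the proliferin promoter. Of the 8 genes listed, 7 had a probe and 6 had one that passed the filter. Fosl1 and Nr3c1, the glucocorticoid receptor, had none that passed. As not every listed gene had a probe, this does not mean that both were measured. Given as a description, all 6 had higher group means in transformed than in primary MEFs in wildtype cells, with a median log2 difference of 0.83 against 0.05 for all tested probes. In null cells 3 of the 6 did, with a median of 0.04 against 0.07. Fos (ILMN_2750515) read 12.11, 11.88 and 12.06 in wildtype and 12.99, 13.02 and 13.07 in null primary MEFs. In transformed MEFs the order was turned, with 13.28, 13.60 and 13.68 in wildtype and 12.91, 12.82 and 12.83 in null cells. Both differences were called by limma, at 1.01 ± 0.10 in primary MEFs (adjusted p = 0.0186) and -0.67 ± 0.12 in transformed MEFs (adjusted p = 0.0194). The change between them was -1.68 ± 0.15 (limma, adjusted p = 0.000136). Fosb, a Fos paralog, had differences of 1.42 ± 0.22 in primary MEFs (limma, adjusted p = 0.169) and -1.04 ± 0.12 in transformed MEFs (limma, adjusted p = 0.00503), with a change of -2.46 ± 0.27 (limma, adjusted p = 0.000416). The change was also called for Junb and Jund (-0.90 ± 0.16 and -0.89 ± 0.20; limma, adjusted p = 0.00998 and 0.0393), so that the change was called negative for 4 of 6 probes, against 1.26% of all probes. As the AP-1 list was chosen with earlier results of these data known, its counts here and below are descriptions. On simulated data 7.5% of the calls of this contrast were false, above the 5% that its threshold names.

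**Figure D5:**
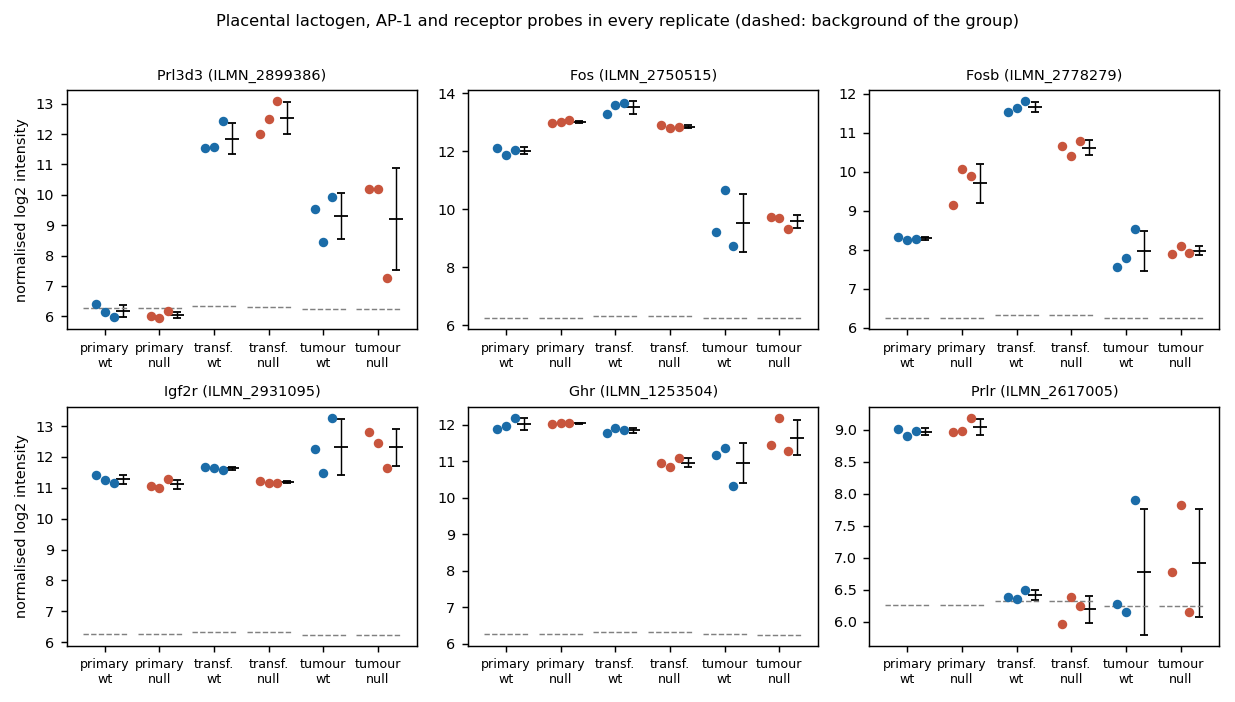
Normalised log2 intensity (y axis) of Prl3d3, Fos, Fosb, Igf2r, Ghr and Prlr in every replicate of the 6 groups (x axis). Points are replicates (recipient means in tumours), blue for wildtype and red for null, black marks are the mean ± SD (n = 3), the dashed line is the background of the group, and the y axes differ between panels. The means of Fos and Fosb are lowest in tumours, where Prl3d3 is below its level in transformed MEFs and Igf2r is at 11.47 or above.

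Fos and Fosb were lower in tumours than in transformed MEFs. Null tumours minus null transformed MEFs was -3.27 ± 0.31 log2 units for Fos and -2.65 ± 0.22 for Fosb (limma, adjusted p = 6.94e-06 and 3.07e-06). All 6 AP-1 probes were called lower in this contrast, against 24.3% of all probes. Its false calls on simulated data were 19.8% of all its calls there, more than the threshold names. Far fewer probes were changed in that simulation than were called here. Fos read 9.21, 10.67 and 8.74 in wildtype recipients 1, 2 and 3, and 9.75, 9.69 and 9.31 in null recipients 4, 5 and 6, so the genotypes overlapped. Whether AP-1 genes and proliferin changed unequally was not tested.

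Trophoblast genes were looked at because proliferin is a product of trophoblast giant cells. Of 16 genes listed, 5 had a probe that passed the filter: Gata2, Gata3, Tfap2c, Plac1 and Cdx1. Gata2, a factor that acts on placental hormone genes in trophoblast, read 8.80, 8.66 and 9.02 in wildtype and 9.35, 9.45 and 9.47 in null transformed MEFs (difference 0.59 ± 0.11; limma, adjusted p = 0.0224). Given as a description, 5 of the 7 trophoblast probes had higher means in transformed than in primary MEFs in each genotype, with a median log2 difference of 0.93 in wildtype and 0.63 in null cells, against 0.05 and 0.07 for all probes. Gata2 was the 1 of 7 trophoblast probes called between genotypes in transformed MEFs, where 2.68% of all probes were called higher. This list too was chosen with earlier results of these data known, so its counts are descriptions. Trophoblast markers such as Hand1, Ascl2, Tpbpa, Cdx2, Eomes and Elf5 did not pass the filter.

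Likeness to proliferin was measured as Pearson's r with the mean profile of the 4 member probes over the 18 replicates, as a description without a test, since r is set mainly by the step between primary MEFs and the other groups. The 5 closest probes outside the family were 3 that the file names only by number, ILMN_1245887 (0.988), ILMN_1221149 (0.987) and ILMN_2473811 (0.986), followed by Cobll1 (0.986) and Ccl5 (0.984). The first 3 lay at 6.03 to 6.10 in primary MEFs and at 14.86 to 15.13 in the other groups. Ccl5, a chemokine, was at 6.38 and 6.22 in wildtype and null primary MEFs, 9.24 and 9.06 in transformed MEFs and 9.34 and 9.31 in tumours. In all, 17 probes had an r over 0.98 and 103 over 0.95, members included.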

How the data were processed

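The authors deposited log2 intensities of 30 Illumina arrays, made with BeadStudio, limma 3.12.1 and R 2.15.1, per the submitters' processing notes, which name no background correction. Detection p-values deposited in scanner tables gave, with the probe names, only how many arrays detected each probe, because the 480 array columns there match no sample label. All arrays were quantile normalized together, and the 20254 probes that at least 3 arrays detected (p under 0.01) were tested. A RefSeq table (GRCm38.p6) updated symbols: 27400 probes carried a current symbol and 8339 an older one. Limma 3.58.1 (R 4.3.3) fitted genotype differences per stage and interactions over 4 groups, with stage weights where tumours entered. A probe was called when its Benjamini-Hochberg adjusted p was under 0.05. The fits were tested on simulated data, where those joining 2 stages made more false calls than this threshold names. Of their calls, 7.5% were false for the change from primary to transformed MEFs and 12.4% for the change from transformed MEFs to tumours. For null tumours minus null transformed MEFs it was 19.8%. Far fewer probes were changed in that simulation than were called in the data, so this share need not hold for the calls reported. Named genes are all proliferin probes, family genes that passed the filter, up to 4 genes per list, and the 5 closest profiles. The members and lists were chosen with earlier results of these data known. The number of arrays limits the precision.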

Additional observations from a re-analysis of the deposited data

How the results depend on the processing

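No genotype difference of a member probe, and no change of one between stages, was called under any alternative run. Null tumours minus null transformed MEFs, a description for the members, was -1.35 for ILMN_2996648 without null recipient 5 and ran from -1.35 to -0.36 with replicates left out. The number of probes called moved more. In primary MEFs it was 6, and 14 with 1 fit of all 6 groups, 2 with no filter and 2 with the replicate number as a block. In transformed MEFs it was 1186, and 196, 708 and 781 under the same 3 settings. In tumours it was 0, and 21 with 1 fit and 7 with chip and recipient as blocks. For the change from primary to transformed MEFs it was 392, and 238 with the replicate block. For the change from transformed MEFs to tumours it was 0, and 1 with no filter. For null tumours it was 9278, and 6134 with 1 probe per gene. With each replicate left out in turn these counts ran from 2 to 4, 291 to 657, 0 to 0, 217 to 460, 0 to 7 and 6089 to 9026. Replicate numbers did not pair the samples (correlations of deviations -0.319 to 0.061), so the block is given here only. Member differences that changed sign were uncalled or untested: ILMN_2617996 in null tumours minus null transformed MEFs was 0.0864 on the values as deposited, and -0.41 to 0.24 with replicates left out. On tumour chip 2 alone the genotype differences were 0.32, 0.0317, 0.30 and 0.13, on chip 1 -0.71, -0.18, -0.64 and -0.73, and on chip 3 -0.67, -0.97, -1.43 and -1.38, and with recipients left out they ran from -0.87 to 0.42 (ILMN_1259967), -0.74 to -0.0163 (ILMN_2617996), -0.97 to -0.0814 (ILMN_2875585) and -1.09 to -0.10 (ILMN_2996648). In the same order, the changes from transformed MEFs to tumours ran from -1.52 to -0.24, -1.27 to -0.55, -1.46 to -0.57 and -1.72 to -0.73. Wildtype tumours minus transformed MEFs, a description, ran from -0.78 to 0.51, 0.45 to 1.16, -0.19 to 0.59 and -0.11 to 0.69, and that of ILMN_1259967, -0.01, was 0.39 on the values as deposited and 0.19 with arrays centred on the median. The changes of the genotype difference from primary to transformed MEFs ran from 0.15 to 0.63 (ILMN_1259967), -0.38 to 0.0468 (ILMN_2617996), -0.34 to 0.0133 (ILMN_2875585) and -0.0274 to 0.32 (ILMN_2996648). The bound for ILMN_1259967 in wildtype transformed MEFs, 58.7, was 53.7 on the values as deposited, 54.2 with arrays centred on the median and 53.4 with background as the 99th percentile. Starting from scanner signals was not run because their columns could not be assigned to samples.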
